A study of Mus musculus with 6 samples.

Results

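Mural cells are the pericytes and smooth muscle cells that wrap the endothelial cells (ECs) of blood vessels. The mural cells described here were those that the authors' annotation of a single-cell experiment labels Mural, and they numbered 214 of 8944 cells. All cells came from mouse retinas taken on postnatal day 14 (P14) of oxygen-induced retinopathy (OIR), a model in which newborn mice breathe high oxygen, retinal capillaries regress, and vessels regrow after the return to room air. There were 3 replicates of eNOS+/+ mice (C57BL/6J) and 3 of eNOS-/- mice, which lack endothelial nitric oxide synthase, and both genotypes underwent OIR, so no retina without OIR was part of the data. Retinas were pooled within a replicate, so a replicate is not an animal, and p-values measure the spread between these pools. The suspensions were enriched for ECs with beads against CD31, a surface protein of ECs, and mural cells are the ones that remained beside them. In Drop-seq, a cell shares a droplet with a barcoded bead, and each captured RNA molecule is counted by a unique molecular identifier (UMI).

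Pericytes sit in the basement membrane of capillaries, where ECs secrete PDGF-B and pericytes carry its receptor, PDGFRB. The retina is known for a dense coat of pericytes, and their loss is an early sign of diabetic retinopathy. Smooth muscle cells of arterioles contract through actin and myosin, and nitric oxide (NO) made in ECs relaxes them by activating soluble guanylate cyclase, which makes cyclic GMP.

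The eNOS+/+ replicates held 3, 30 and 41 mural cells and the eNOS-/- replicates 36, 47 and 57. The mural cells had 11323, 20148 and 28817 UMIs in all in eNOS+/+ and 75864, 81525 and 96487 in eNOS-/-. The median number of UMIs per mural cell was 3303, 603 and 466 in eNOS+/+ and 1333, 1305 and 1213 in eNOS-/-, so depth per cell was higher in every eNOS-/- replicate than in eNOS+/+ replicates 2 and 3. Levels are given below as counts per 1000000 UMIs (CPM) of the mural cells of a replicate, and 3 UMIs, the number that a count of 0 allows, came to 265, 149 and 104 CPM in eNOS+/+ and 39.5, 36.8 and 31.1 CPM in eNOS-/-. Means ± SD are over the 5 replicates with at least 10 mural cells, and the eNOS+/+ replicate 1, with its 3 cells, is given apart. Replicates shared 0 mural barcodes, and the deposited annotation called 100% of the cells singlets. Joining barcodes of a replicate that differ by 1 of 12 bases gave 141 groups for the 214 mural cells, so some cells may be counted more than once. UMIs of at least 2 of 12 EC marker genes were found in 82 of the 214 mural cells, and genotype results without those cells are given beside the main values.

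The label was checked against the markers Rgs5, Pdgfrb and Kcnj8. All 3 were found in every replicate with at least 10 mural cells, and the ECs of every replicate other than eNOS-/- replicate 3 had at most 77.9, 3.05 and 1.97 CPM of them. In eNOS+/+ replicate 1, Rgs5 was found in 1 of the 3 cells, with 113 UMIs, and Pdgfrb and Kcnj8 in none, so those 3 cells carry the name on thin evidence. All 214 mural cells lay in 1 cluster of the authors' integrated data, which held 40 further cells labelled ECs. Those 40 cells had 43.4 CPM of Rgs5 and 780 CPM of Cldn5, a tight-junction gene of ECs, against 20076 CPM and 140 CPM in the mural cells, so the pooled levels of these genes differed between the labels. Single cells could differ from this, as 1 mural cell of eNOS+/+ replicate 1 had 0 Rgs5 UMIs and UMIs of 8 EC markers. Of the 40 cells, 22 came from that replicate.

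**Figure D1:**
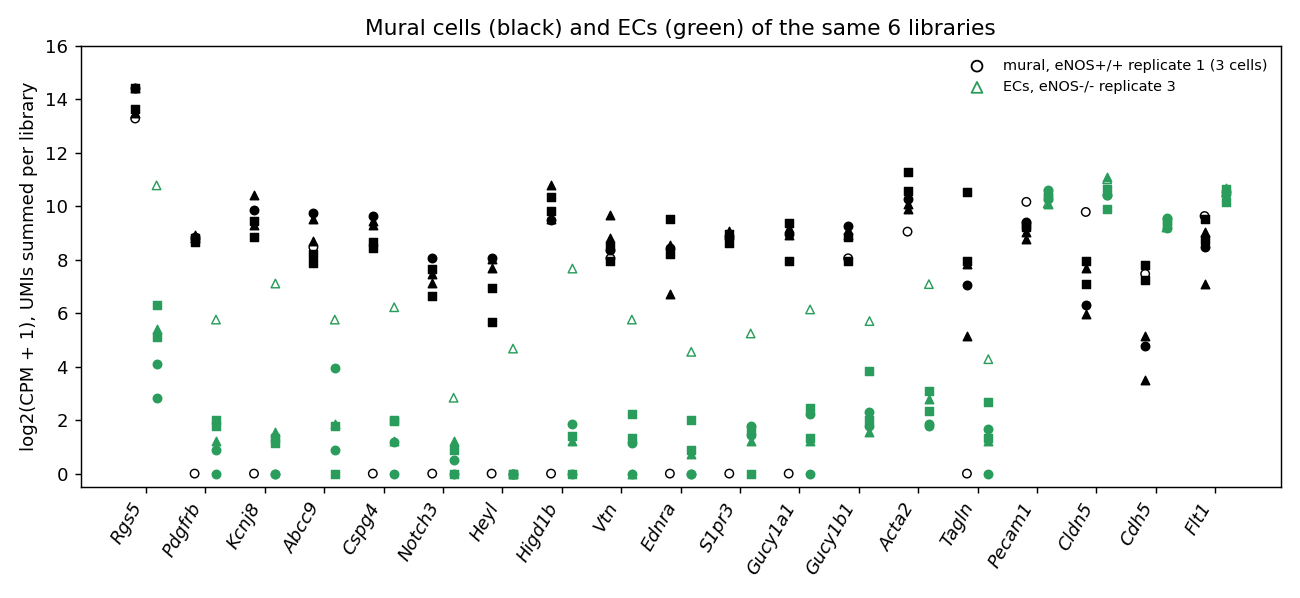
Levels of 19 genes on a log2(CPM + 1) axis in the mural cells (black) and the ECs (green) of each of the 6 replicates, where circles, squares and triangles stand for replicates 1, 2 and 3 of either genotype. Pericyte genes sit high in black and low in green and EC genes the other way round, and the open green triangles, the ECs of eNOS-/- replicate 3, lie above the other ECs for the pericyte genes.

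Rgs5, which encodes a regulator of G-protein signalling and is a standard pericyte marker, took more mural UMIs than any other gene, 2.01% of them. Its level was 12607 and 11556 CPM in the eNOS+/+ replicates 2 and 3, 22171, 22067 and 22034 CPM in the eNOS-/- replicates, and 9980 CPM in the 3 cells of eNOS+/+ replicate 1. The ECs of the same replicates had 6.06, 33.5 and 41.4 CPM in eNOS+/+ and 15.98, 77.9 and 1761 CPM in eNOS-/-. Mural levels were thus far above EC levels in every replicate, with the ECs of eNOS-/- replicate 3 standing apart. With every cell thinned to 500 UMIs, 95.2% of 147 mural cells carried an Rgs5 UMI, against 2.51% of ECs and 4.75% of rods, the photoreceptors, which do not make it. Without thinning, the shares were 95.8% of mural cells, 4.59% of ECs and 5.11% of rods, with medians of 827.5, 682 and 361 UMIs per cell. The rods' share gives a rough background only, since rods and ECs came from different mixes of replicates. Among cells that were neither mural cells nor ECs, the share with an Rgs5 UMI ran from 0.193% to 15.7% by replicate. Rods and ECs were not compared within replicates.

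The Rgs5 UMIs in ECs were not spread evenly over replicates. Of the ECs, 0.601%, 2.83% and 2.47% held an Rgs5 UMI in eNOS+/+ and 1.44%, 6.09% and 24.7% in eNOS-/-. In eNOS-/- replicate 3, 24 of 288 ECs held more than 10 Rgs5 UMIs each, with 689 of the 860 Rgs5 UMIs in ECs. Cells of that replicate that were neither mural cells nor ECs had 3643 CPM of Rgs5, against 3.16 to 429.6 CPM in the other replicates. The replicate was also the one with the largest share of mural cells. The source of these UMIs was not tested.

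Pdgfrb encodes the receptor by which pericytes are recruited. Its mural level was 447 and 451 CPM in eNOS+/+ replicates 2 and 3 and 461, 405 and 487 CPM in eNOS-/-, a mean of 450 ± 29.8 CPM (SD, n = 5), and no replicate differed much from the others. Pdgfb, the ligand, showed the reverse, with 34.6 ± 20.4 CPM (SD, n = 5) in mural cells and 165 to 347 CPM in ECs. Pdgfa, which encodes the other classical ligand, was at 149 to 347 CPM in the mural cells of those 5 replicates and 21.0 to 48.6 CPM in ECs. All 3 genes of the list of PDGF ligands, receptors and partners that had at least 30 mural UMIs (Pdgfrb, Pdgfa and S1pr3) were above ECs in every one of the 5 replicates. Of all 2071 genes with that many mural UMIs, 20.1% were. S1pr3, a receptor for sphingosine 1-phosphate, was at 477 ± 53.0 CPM (SD, n = 5) in mural cells and at most 36.9 CPM in ECs, while S1pr1, the EC receptor for the same lipid, was at 47.5 ± 43.4 CPM (SD, n = 5) in mural cells and 291 to 360.4 CPM in ECs.

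Kcnj8 and Abcc9 encode the pore Kir6.1 and the regulatory subunit SUR2 of the ATP-sensitive potassium channel of pericytes. Kcnj8 was at 695 and 625 CPM in eNOS+/+ replicates 2 and 3 and 936, 466 and 1358 CPM in eNOS-/-, and at most 1.97 CPM in the ECs of any replicate other than eNOS-/- replicate 3 (137 CPM). Abcc9 was at 298 and 416 CPM in the same eNOS+/+ replicates, 857, 233 and 736 CPM in eNOS-/-, and 353 CPM in eNOS+/+ replicate 1. Of the 5 replicates, eNOS-/- replicate 2 was lowest for both genes. They are neighbours on chromosome 6 of GRCm38, with 16247 bases between the gene bodies and 0 protein-coding genes in that gap. Of 9 ion channel and transporter genes of mural cells with at least 30 mural UMIs, 8 were above ECs in all 5 replicates, among them Kcnmb1 and the sodium pump gene Atp1b2, and Slc7a1, an amino acid transporter, was below ECs. Of all 2071 genes with that many mural UMIs, 20.1% were above and 11.3% below in all 5.

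Over the whole list of 28 pericyte markers, 27 had a mural UMI. Of the 22 members with at least 30 mural UMIs, 21 were above ECs in each of the 5 replicates, where 20.1% of all 2071 genes with that many mural UMIs were. Of all 28, 23 were above, where 4.85% of the 12414 genes with any mural UMI were. The cells were labelled from these same UMIs, so such counts describe the label and are given with no test. Notch3, the Notch receptor of mural cells, was at 198 and 139 CPM in eNOS+/+ replicates 2 and 3 and 264, 98.1 and 176 CPM in eNOS-/-, and at most 6.14 CPM in ECs. The mean mural level of Notch3 was 100-fold that of ECs, the largest ratio among genes with at least 30 mural UMIs that were above ECs in all 5 replicates. The proteoglycan gene Cspg4 (NG2) was at 575 ± 194 CPM (SD, n = 5), Higd1b, a marker of brain and retinal pericytes, at 1082 ± 456 CPM, and Vtn, encoding vitronectin, at 439 ± 219 CPM, which were 35.0, 26.0 and 37.5 times the EC mean. Mcam, Gja4 and Ebf1 were only 2.22, 2.39 and 3.24 times the EC mean, since ECs carried them too, and Foxf2 was at 0.896 times the EC mean, the 1 member of the 22 that was not above ECs. Atp13a5, a marker of brain pericytes, had 11 UMIs in 8 cells, all of eNOS-/- replicate 3.

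The 20 genes of largest ratio to ECs, among those with at least 30 mural UMIs and above ECs in all 5 replicates, lay at 50.5 to 100 times the EC mean, where an EC mean below 3 UMIs was set to that number. They held the pericyte markers Notch3, Ednra and Des, the contractile genes Tagln, Casq2 and Tpm2, and genes of the matrix (Postn, Aspn, Col1a2, Col5a3, Ccdc80 and Gpc3). Vstm4, which was not on the list of pericyte markers, was among them too. Hspb2, a small heat shock protein of muscle, was at 99.3 and 104 CPM in eNOS+/+ replicates 2 and 3 and 79.1, 172 and 156 CPM in eNOS-/-, 79.5 times the EC mean. Sod3, the secreted superoxide dismutase, was at 99.3 and 278 CPM and at 145, 36.8 and 321 CPM, 69.9 times the EC mean, and Pcdh18, a protocadherin, at 198 and 312 CPM and at 488, 380.3 and 187 CPM, 52.8 times. All 3 were found in each of the 5 replicates and in none of the 3 cells of eNOS+/+ replicate 1. Ppfibp2, S1pr3, Epb41l1 and Parm1 completed the 20, and of these Epb41l1 was at 253 CPM in cones, above its mural mean.

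The heat map of levels by annotated type places the mural genes against the other 9 types. Ednra, the endothelin receptor of contractile cells, had the largest ratio of means among genes with at least 30 mural UMIs, at 45.2 times the highest other type (Optc+ cells, 8.22 ± 18.4 CPM, from 5 UMIs). It was followed by Kcnmb1, the beta subunit of the calcium-activated potassium channel, at 37.5 times, Notch3 at 27.5, Des, the intermediate filament desmin, at 22.3, and Rgs5 at 21.4. These ratios rest on few UMIs of the other types. With UMIs pooled over replicates they were 15.7 for Ednra, 55.2 for Kcnmb1, 15.8 for Notch3, 20.4 for Des and 30.4 for Rgs5, so the order of the 5 changed. Several pericyte markers were shared with other types. The transcription factor gene Zic1 was at 204 ± 42.7 CPM (SD, n = 5) in mural cells and 787 CPM in Optc+ cells. Cox4i2, a subunit of cytochrome oxidase, was at 202 ± 111 CPM (SD, n = 5) in mural cells and 436 CPM in neuroglia, and Vtn was at 198 CPM in rods. Over the 10 types, the levels most like those of Rgs5 on the log2 scale were those of Pdgfrb (Pearson's r = 0.946), Tpm2 (0.939), Rgs4 (0.922), Vstm4 (0.908) and Abcc9 (0.901), where the types share libraries and differ in depth.

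**Figure D2:**
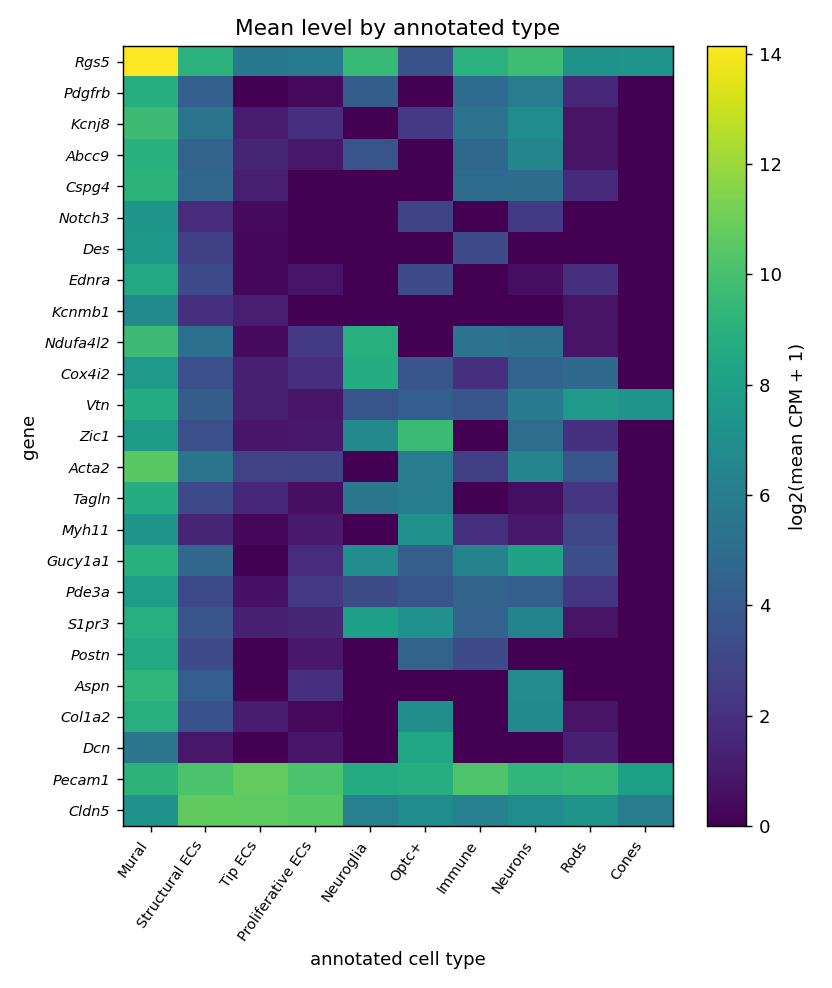
Mean levels of 25 genes in the 10 annotated types as a heat map of log2(mean CPM + 1), where a mean is over the replicates with at least 10 cells of the type (5 for mural cells, 1 for cones). Most pericyte and contractile genes are brightest in the mural column, while Zic1 (787 CPM) is brighter in Optc+ cells and Pecam1 and Cldn5 in the EC columns.

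RefSeq promoters were searched for short motifs of factors known for these genes. The letters TGGGAA, bound by the Notch effector RBPJ, were found on either strand in 9 of the 21 pericyte markers with a promoter entry (42.9%), Abcc9 and Kcnj8 among them, and in 28.3% of all 27025 promoters (250 bases before to 50 after the start). Of 12 Notch pathway genes with an entry, 3 held these letters (Hey2, Lfng and Rbpj), a smaller share than among all promoters. The CArG box of serum response factor (CC, 6 bases of A or T, GG) was found in 1 of 17 contractile genes with an entry, Myl9, in 0 of the 21 pericyte markers and in 1.81% of all promoters. A match describes the letters only. The 250 bases before the RefSeq start (GRCm38.p6) are shown for the leading pericyte gene, for a channel gene that holds the RBPJ letters and for the contractile gene that holds the CArG box, written along the gene's strand with the motif in capitals. They are chr1:169655251-169655500 (+) for Rgs5, which holds neither motif, chr6:142702275-142702524 (-) for Abcc9, with TGGGAA starting 221 bases before the start, and chr2:156775214-156775463 (+) for Myl9, with CCTAATAAGG starting 161 bases before it.
Rgs5: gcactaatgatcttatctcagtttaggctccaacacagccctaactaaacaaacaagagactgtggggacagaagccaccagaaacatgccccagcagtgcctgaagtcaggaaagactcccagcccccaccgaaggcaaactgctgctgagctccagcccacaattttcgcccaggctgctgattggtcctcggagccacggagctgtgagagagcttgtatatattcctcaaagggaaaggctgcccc
Abcc9: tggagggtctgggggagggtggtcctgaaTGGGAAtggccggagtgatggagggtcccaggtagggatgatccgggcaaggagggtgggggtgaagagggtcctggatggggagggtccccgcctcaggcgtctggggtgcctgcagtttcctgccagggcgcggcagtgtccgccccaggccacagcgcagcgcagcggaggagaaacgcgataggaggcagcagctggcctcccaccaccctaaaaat
Myl9: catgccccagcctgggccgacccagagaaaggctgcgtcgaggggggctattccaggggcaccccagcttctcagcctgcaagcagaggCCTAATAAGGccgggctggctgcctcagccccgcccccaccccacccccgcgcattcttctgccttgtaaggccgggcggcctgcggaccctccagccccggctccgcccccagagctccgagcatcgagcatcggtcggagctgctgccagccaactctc

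Contractile genes were above ECs as well, and the summed level of the list was highest in eNOS-/- replicate 2 (18154 CPM, against 7330.2 to 12271 CPM in the other replicates). Of the 14 smooth muscle contractile genes with at least 30 mural UMIs, 11 were above ECs in all 5 replicates. Of all 2071 genes with that many mural UMIs, 20.1% were. Acta2, smooth muscle actin, was at 1539 and 1076 CPM in eNOS+/+ replicates 2 and 3 and 1239, 2490 and 954 CPM in eNOS-/-, with at most 7.62 CPM in ECs other than those of eNOS-/- replicate 3 (135 CPM). Myl9, a myosin light chain, was at 1429 ± 469 CPM (SD, n = 5), and Tpm2, a tropomyosin, at 645 and 451 CPM in eNOS+/+ replicates 2 and 3 and 936, 1754 and 1213 CPM in eNOS-/-. These genes of general contractility were thus found in all 5 replicates. Tagln, the actin-binding protein SM22, was at 248 and 34.7 CPM in those eNOS+/+ replicates and 132, 1484 and 228 CPM in eNOS-/-, and Myh11, the smooth muscle myosin heavy chain, at 99.3 and 34.7 CPM and 92.3, 638 and 0 CPM. For both, eNOS-/- replicate 2 was far above the others.

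The 62 Myh11 UMIs lay in 18 cells, 13 of them from eNOS-/- replicate 2, and the 18 cells formed 13 groups of near-identical barcodes. The 4 cells with a UMI of Cnn1, encoding calponin, and 8 of the 10 with a UMI of Actg2, the enteric smooth muscle actin, came from that replicate too. The 18 Myh11 cells held 12.5% of mural UMIs, and their summed level was 2969 CPM for Tagln against 153 CPM in the other 196 mural cells, 5456 against 881 CPM for Acta2 and 3299 against 863 CPM for Tpm2. Pericyte genes were present in both sets, with Rgs5 at 30098 and 18638 CPM, Pdgfrb at 381 and 444 CPM and Kcnj8 at 609 and 903 CPM. The Myh11 cells had a median of 1462 UMIs, against 794 in the other mural cells, so the 2 sets differed in depth as well. The split was made on Myh11 itself after its values were seen, so these levels are a description. Among the 147 mural cells with at least 500 UMIs, 8 contractile genes together took more than 1% of the UMIs in 15 cells and more than 2% in 8, and 10 and 7 of those were from eNOS-/- replicate 2.

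**Figure D3:**
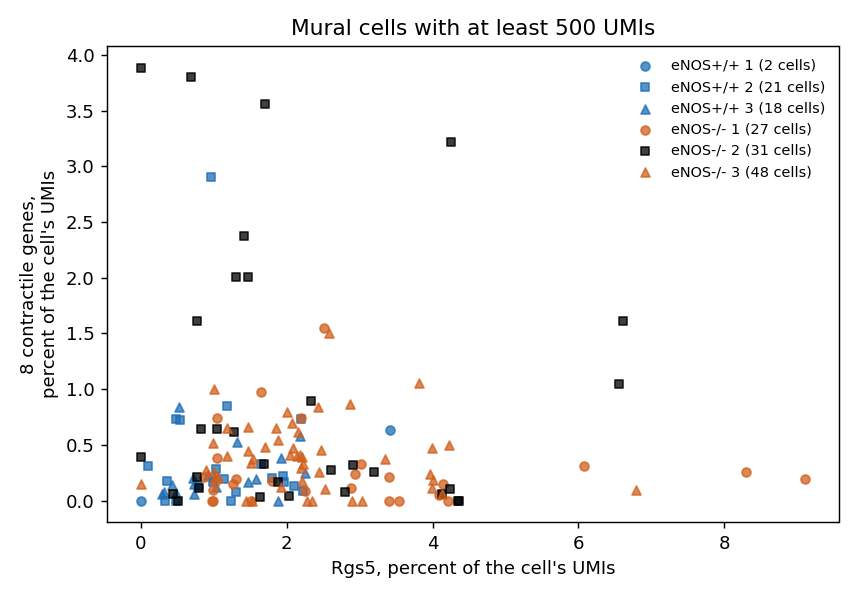
Each point is 1 of the 147 mural cells with at least 500 UMIs, with the percent of its UMIs that were Rgs5 on the x axis and the percent that fell on 8 contractile genes on the y axis. Most cells lie below 1% on the y axis, and 7 of the 8 cells above 2% are from eNOS-/- replicate 2 (black).

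Fibroblast and matrix genes were mixed. Of the 12 fibroblast markers, 11 were in the table, 9 had a mural UMI, and 4 (Col1a2, Col3a1, Col5a1 and Col6a3) were above ECs in all 5 replicates. Of all 12414 genes with any mural UMI, 4.85% were. The collagen gene Col1a2 was at 149 and 659 CPM in eNOS+/+ replicates 2 and 3 and 290.0, 724 and 477 CPM in eNOS-/-, with at most 24.6 CPM in ECs, and Col3a1 was above ECs in the same way, at 198 to 859 CPM. Col1a1 was at 180 CPM on the mean against 16.7 CPM in ECs and above them in 4 of the 5 replicates, and Col5a1 and Col6a3 were at 47.9 and 43.4 CPM, from 14 and 11 UMIs. Other members had few UMIs, with 0 of Lum and Mfap5, 1 of Pdgfra, 2 of Fbln1, 19 of Dcn in 2 cells and 18 of Ogn in 7 cells. Postn and Aspn, encoding matrix proteins, were at 401 ± 144 CPM and 631 ± 372 CPM (SD, n = 5) and 66.4 and 52.9 times the EC mean. Mgp, the matrix Gla protein, an inhibitor of calcification, was at 3375 and 4615 CPM in eNOS+/+ replicates 2 and 3 and 5470.3, 5777 and 6259.9 CPM in eNOS-/-, 27.1 times the EC mean.

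Basement membrane genes were shared between mural cells and ECs. Of 13 members with at least 30 mural UMIs, 3 were above and 4 below ECs in all 5 replicates. Of all 2071 genes with that many UMIs, 20.1% were above and 11.3% below. The median log2 ratio of mural to EC levels was 0.01, beside 0.13 over all genes with that many UMIs. The type IV collagen gene Col4a1 was at 2978 and 2915 CPM in eNOS+/+ replicates 2 and 3 and 4271, 3324 and 2498 CPM in eNOS-/-, with 2047 to 2931 CPM in ECs, a ratio of the means of 1.22. Nid1, whose product nidogen links laminin to collagen, was 2.10 times the EC mean. Sparc and Fn1, encoding osteonectin and fibronectin, were below ECs in every one of these replicates, at 0.636 and 0.372 times the EC mean.

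Genes that receive NO were detected in mural cells, and the endothelial gene that makes it was not detected there. Gucy1a1 and Gucy1b1 encode the 2 subunits of soluble guanylate cyclase. Gucy1a1 was at 248 and 486 CPM in eNOS+/+ replicates 2 and 3 and 501, 662 and 580 CPM in eNOS-/-, and Gucy1b1 at 248 and 486 CPM and 606, 466 and 560 CPM. ECs had at most 69.6 and 51.2 CPM of these genes, both in eNOS-/- replicate 3, and no more than 4.54 and 13.2 CPM elsewhere. Pde5a and Pde3a, phosphodiesterases that break down cyclic nucleotides, were at 205 ± 64.0 and 243 ± 147 CPM (SD, n = 5), 10.3 and 45.1 times the EC mean. Prkg1, the cyclic GMP-dependent kinase, had 9 mural UMIs. Of 6 genes of the NO and cyclic GMP list with at least 30 mural UMIs, 5 were above ECs in all 5 replicates, and Vasp was the exception. Of all 2071 genes with that many mural UMIs, 20.1% were above.

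Nos3, the gene that encodes eNOS, had 0 of 314164 mural UMIs, which allows a level of up to 9.55 CPM, while ECs had 16.1 to 36.6 CPM. The EC level was 19.4, 36.6 and 23.6 CPM in eNOS+/+ and 21.2, 16.1 and 32.8 CPM in eNOS-/-, so the UMIs of the targeted gene overlapped between genotypes and do not check the labels. Genotypes are given below as the labels have them.

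EC genes were found in mural cells at lower levels than in ECs. All 8 of the 12 EC markers with at least 30 mural UMIs were below ECs in all 5 replicates, where 11.3% of the 2071 genes were. Their summed mural level over the 12 genes was 4328, 2631 and 2429 CPM in eNOS+/+ and 1938, 2527 and 1213 CPM in eNOS-/-, against 8659 to 10099.6 CPM in ECs. Cldn5 was at 248 and 208 CPM in eNOS+/+ replicates 2 and 3 and 79.1, 135 and 62.2 CPM in eNOS-/-, and rods, which do not make it, had 94.5 CPM. The summed level of 10 rod markers was 72.6 to 540 CPM in mural cells and 61.4 to 646 CPM in ECs. Of 12 microglia and macrophage markers, 9 were at 0 in mural cells, and so were the glial genes Aqp4, Gfap, Clu and Hes5 and 6 of 7 pigment cell markers. Red blood cell genes were low in mural cells, with Hbb-bs at 0 to 69.4 CPM in mural cells and 15.8 to 4667 CPM in ECs.

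Of the Notch pathway, 4 genes had at least 30 mural UMIs, 2 of them above and 1 below ECs in all 5 replicates. Of all 2071 genes with that many mural UMIs, 20.1% were above and 11.3% below. Heyl, a Notch target, was at 181 ± 92.6 CPM (SD, n = 5), with 0 CPM in the ECs of 5 of the 6 replicates, and Hes1, another target, was at 0.730 times the EC mean. Cell cycle genes were found as well. Top2a, a topoisomerase of dividing cells, was carried by 11.6% of mural cells thinned to 500 UMIs, against 8.74% of ECs and 1.66% of rods, with a mural level of 447 and 416 CPM in eNOS+/+ replicates 2 and 3 and 198, 172 and 207 CPM in eNOS-/-. Mki67, the Ki-67 gene, was at 447 and 451 CPM and at 277, 258 and 41.5 CPM in the same order. Both were at 0 UMIs in the 3 cells of eNOS+/+ replicate 1, where 3 UMIs came to 265 CPM. Whether the genotypes overlapped over all replicates could therefore not be told. The fitted log2 fold change of Mki67 was -0.84 (adjusted p = 0.917 in the quasi-likelihood test of edgeR, Benjamini-Hochberg adjusted).

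Chemokine genes varied widely between the eNOS-/- replicates. Cxcl1, a neutrophil chemokine, was at 794 and 798 CPM in eNOS+/+ replicates 2 and 3 and 1279, 36.8 and 2705 CPM in eNOS-/-. Ccl2, a monocyte chemokine, was at 298 and 589.9 CPM and at 699, 12.3 and 570.0 CPM. Both genes were nearly absent in eNOS-/- replicate 2. The 400 Cxcl1 UMIs lay in 43 mural cells, with 52.5% of them in 5 cells, and the 47 Il6 UMIs lay in 7 cells that formed 3 groups of near-identical barcodes. Klf2, a flow-responsive transcription factor, was at 496 and 625 CPM in eNOS+/+ replicates 2 and 3 and 52.7, 24.5 and 860.2 CPM in eNOS-/-, and the ECs of the same 5 replicates ran in a like order, with 684, 684 and 219, 172 and 924 CPM.

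The share of mural cells among all cells was compared between genotypes, as pericyte coverage is a usual measure of vessel maturity. It was 0.294% (95% Wilson interval 0.1 to 0.862), 4.89% (3.45 to 6.9) and 2.93% (2.17 to 3.95) for eNOS+/+ and 2.01% (1.46 to 2.77), 1.27% (0.954 to 1.68) and 13.7% (10.8 to 17.4) for eNOS-/-, with intervals that cover counting error only. Mural cells per 100 ECs came to 0.601, 5.66 and 3.75 in eNOS+/+ and 2.88, 2.07 and 19.8 in eNOS-/-. The eNOS+/+ replicate 1 was lowest and the eNOS-/- replicate 3 highest in both, and the genotypes overlapped. The means were 2.71 ± 2.31% and 5.67 ± 6.99% of cells (SD, n = 3 per genotype; exact two-sided permutation p = 0.7), and 3.34 ± 2.56 and 8.25 ± 10.0 mural cells per 100 ECs (SD, n = 3 per genotype; exact two-sided permutation p = 0.7), each 0.7 after Benjamini-Hochberg adjustment over the 2 tests, where the smallest p that 3 against 3 allows is 0.1. Without eNOS-/- replicate 3 the differences (2.97 points and 4.91 cells) turned to -1.07 percentage points and -0.862 cells per 100 ECs. With the mural cells that carried EC UMIs left out, the differences were 1.44 points and 2.37 cells. The part of the CD31 enrichment and of the authors' removal of cells in these shares was not tested.

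**Figure D4:**
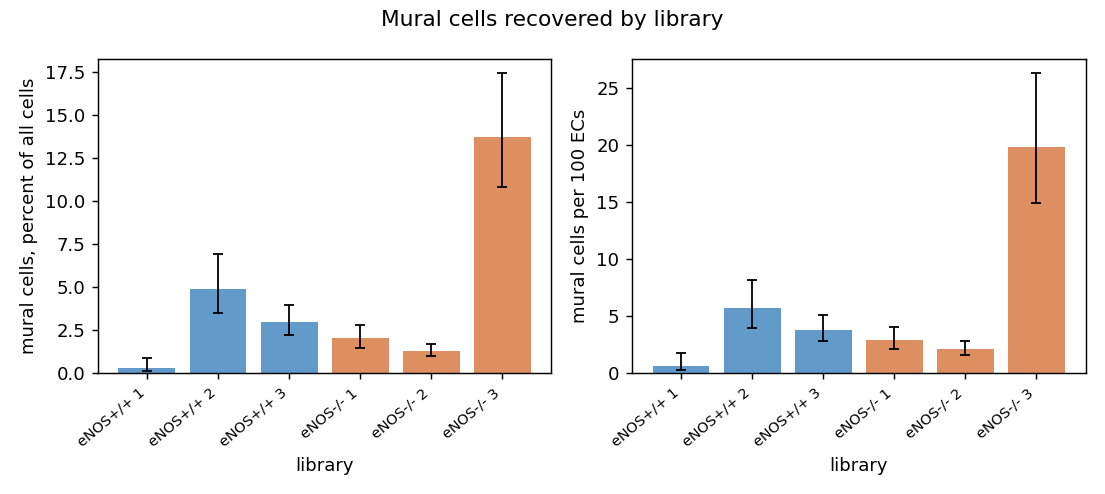
Bars give the mural cells of each replicate as a percent of all its cells (left) and per 100 of its ECs (right), with 95% Wilson intervals, eNOS+/+ in blue and eNOS-/- in orange. The eNOS-/- replicate 3 stands at 13.7% and 19.8 per 100 ECs, and the other 5 replicates lie at or below 4.89% and 5.66 per 100 ECs.

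Between genotypes, 0 of 1059 tested genes (0.0%) passed an adjusted p of 0.05 in mural cells by the quasi-likelihood test of edgeR, Benjamini-Hochberg adjusted. At an unadjusted p under 0.05 there were 51, of which 24 were higher (2.27%) and 27 lower (2.55%) in eNOS-/-, and DESeq2 also called 0, with 37 at that unadjusted p. The gene of smallest p was Rgs5, with the values given above. Every eNOS-/- replicate lay above every eNOS+/+ replicate, as 5.85% of the tested genes did, and the means were 11381 ± 1322 and 22091 ± 71.7 CPM (SD, n = 3 each). These means include eNOS+/+ replicate 1, where 1 cell with 8 EC markers and 0 Rgs5 UMIs held 7809 of the 11323 mural UMIs. All 113 Rgs5 UMIs of that replicate lay in another cell, where they were 3.42% of its 3303 UMIs. The value of that replicate thus depends on which of its cells are counted. The fitted log2 fold change was 0.99 (standard error 0.26, unadjusted p = 0.00157 and adjusted p = 0.646 in the quasi-likelihood test of edgeR, Benjamini-Hochberg adjusted). Without eNOS+/+ replicate 1 the log2 fold change was 0.99 as well (adjusted p = 0.137 by edgeR), and with mural cells of 250 to 1500 UMIs it was 0.73 (adjusted p = 0.956 by edgeR). Without the mural cells that carried EC UMIs, 225 genes were tested, and Rgs5 was at 1.53 (unadjusted p = 0.3023 and adjusted p = 0.995 by edgeR). That setting left 1 cell with 211 UMIs in eNOS+/+ replicate 1. Mural UMIs fell in every replicate, in eNOS-/- replicate 1 from 75864 to 12409. The part of this loss of depth in the Rgs5 value was not tested. With no filter on low counts, Rgs5 (1.51) and Tagln passed as higher and Depp1 as lower, 3 of 12414 genes, in a fit whose median log2 fold change over all genes was 0.80, with 8767 higher in eNOS-/-. Over all alternatives its log2 fold change lay between 0.73 and 1.53 and its adjusted p between 0.00635 and 0.995.

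Because depth per cell differed between genotypes, Rgs5 was also summed by depth. In mural cells under 500 UMIs it was at 16261 CPM in eNOS+/+ and 22479 CPM in eNOS-/-. From 500 to 1000 UMIs it was at 11986 and 23403 CPM, from there to 2000 UMIs at 10336 and 30846 CPM, and over 2000 UMIs, with 3 eNOS+/+ cells, at 8919 and 19048 CPM. The eNOS-/- sum was above the eNOS+/+ sum in each of the 4 ranges, which pool replicates and carry no test. Of the 121 Rgs5 UMIs in eNOS+/+ cells over 2000 UMIs, 113 lay in 1 cell. The other eNOS+/+ cells of that range carried 8 EC markers each. The part of depth in the Rgs5 difference was not tested.

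The other genes of smallest p that were higher in eNOS-/- were Sf3b1, Lamc1, Aspn and Tpm2. Lamc1, a laminin chain of basement membranes, was at 88.3, 198 and 104 CPM in the eNOS+/+ replicates and 540.4, 319 and 394 CPM in eNOS-/-, with no overlap. Its log2 fold change was 1.65 (adjusted p = 0.809 in the quasi-likelihood test of edgeR, Benjamini-Hochberg adjusted). Sf3b1, a splicing factor, was at 177, 99.3 and 69.4 CPM and at 474, 442 and 301 CPM, and Aspn at 0, 397 and 312 CPM and at 461, 760.5 and 1223 CPM, also with no overlap. Their log2 fold changes were 2.00 and 1.61, and that of Tpm2 was 1.09, with adjusted p of 0.646, 0.917 and 0.917 from the quasi-likelihood test of edgeR, Benjamini-Hochberg adjusted. The eNOS+/+ values of Sf3b1 all lay below what 3 UMIs came to in those replicates (265, 149 and 104 CPM). So did those of Lamc1 and Aspn in eNOS+/+ replicate 1. Such values could not be told from 0.

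Of the genes lower in eNOS-/-, those of smallest p were Hmgn2, Nop56, Bsg, 1110004F10Rik and Ptges3. Hmgn2, a nucleosome-binding protein, was at 442, 496 and 555 CPM in eNOS+/+ and 158, 61.3 and 228 CPM in eNOS-/-, and Nop56, a nucleolar protein of ribosome assembly, at 442, 546 and 243 CPM and at 79.1, 73.6 and 124 CPM. Bsg, encoding basigin, a surface protein abundant in barrier ECs, was at 2119.6, 695 and 521 CPM and at 290.0, 307 and 352 CPM. Ptges3, a co-chaperone, was at 353, 447 and 521 CPM and at 158, 159.5 and 176 CPM. None of these 5 genes overlapped between genotypes, as 5.38% of the tested genes did not in this direction. Their log2 fold changes lay from -2.03 for Nop56 to -1.38 for 1110004F10Rik, that of Bsg moved from -1.63 to -0.80 without eNOS+/+ replicate 1, and the adjusted p was 0.646 for each of the 5 by the quasi-likelihood test of edgeR, Benjamini-Hochberg adjusted.

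**Figure D5:**
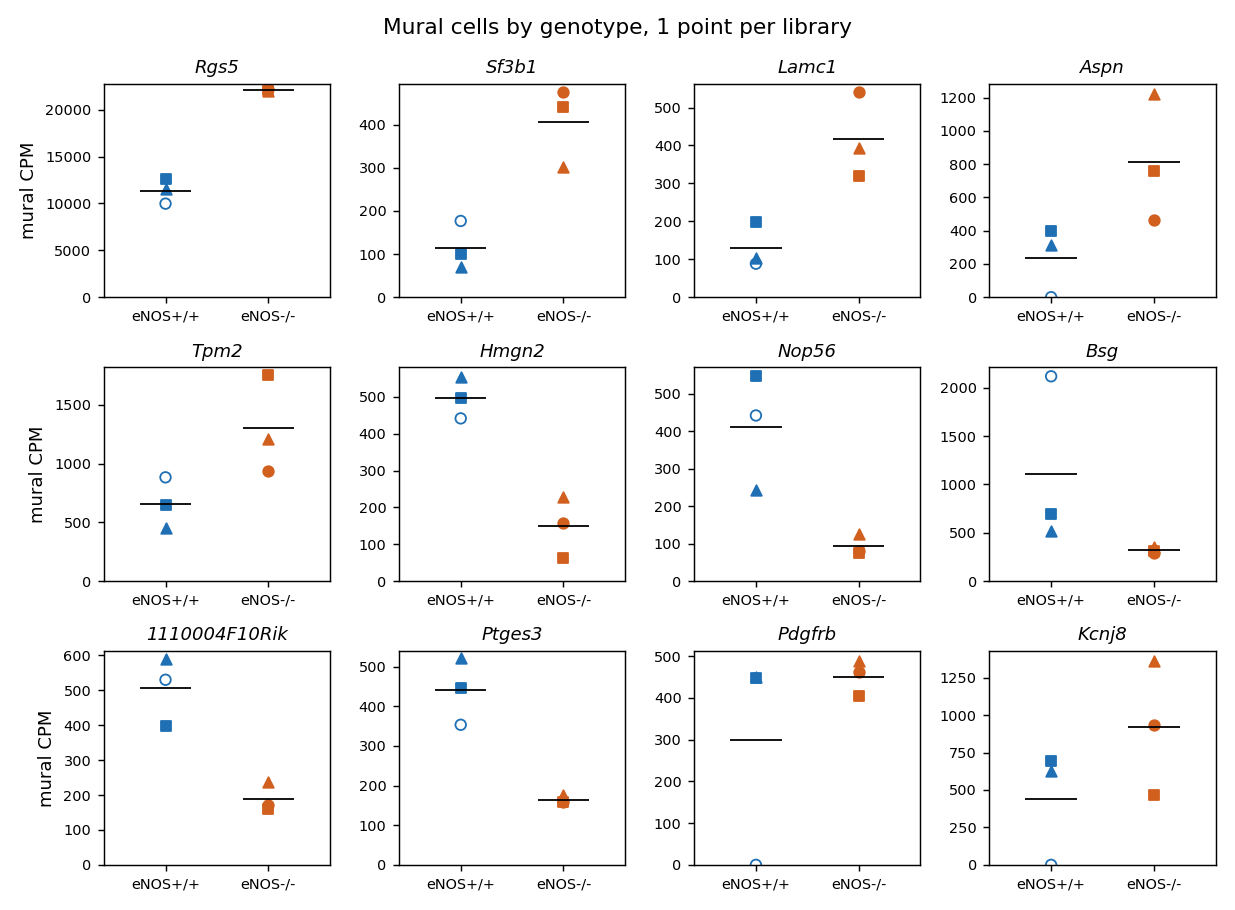
Mural CPM of the 5 genes of smallest p in each direction and of Pdgfrb and Kcnj8, with 1 point per replicate (circle, square and triangle for replicates 1, 2 and 3), a line at the mean of each genotype and an open circle for eNOS+/+ replicate 1 with its 3 cells. The genotypes do not overlap in the first 10 panels and overlap for Pdgfrb and Kcnj8, whose eNOS+/+ replicate 1 is at 0.

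By list, 17 pericyte markers were tested and 0 were called, with 13 higher and 4 lower in eNOS-/- and a median log2 fold change of 0.57, beside 0.01 over all genes tested. Rgs5 and Rgs4 were the 2 at an unadjusted p under 0.05. Pdgfrb and Kcnj8 had log2 fold changes of 0.41 and 0.90 (adjusted p = 0.950 and 0.917 by the quasi-likelihood test of edgeR, Benjamini-Hochberg adjusted). All 7 contractile genes tested were higher in eNOS-/-, with a median of 0.71 and 0 called, Tagln and Tpm2 being at an unadjusted p under 0.05. All 6 genes of the NO and cyclic GMP list were higher too, with a median of 0.45, and 0 were called, Gucy1a1 having a log2 fold change of 1.02 (adjusted p = 0.917 by the quasi-likelihood test of edgeR, Benjamini-Hochberg adjusted). All 5 EC markers tested were lower in eNOS-/-, with a median of -0.57 and 0 called, Cldn5 at -2.02 and Flt1 at -1.09 being at an unadjusted p under 0.05. Cldn5 moved to -1.17 without eNOS+/+ replicate 1 (unadjusted p = 0.119 by edgeR), where 1 cell held 10 of its 44 mural UMIs. Of 8 cell cycle genes, 7 were lower, with a median of -0.37 and 0 called. Without eNOS+/+ replicate 1, which had 4328 CPM of EC markers and 0 UMIs of Pdgfrb and Kcnj8, the medians were 0.17 for 22 pericyte markers (13 higher and 9 lower), 0.34 for 12 contractile genes (9 higher and 3 lower), 0.48 for the 6 NO and cyclic GMP genes (6 higher), -0.48 for 8 EC markers (3 higher and 5 lower) and -0.57 for 18 cell cycle genes (4 higher and 14 lower), beside 0.08 over 1973 genes. Leaving out other replicates moved these medians too. That of the pericyte markers fell to 0.37 (10 of 13 higher) without eNOS-/- replicate 3, and that of the contractile genes to 0.26 (5 higher and 1 lower) without eNOS-/- replicate 2. The cell cycle median turned to 0.06 (9 higher and 7 lower) without eNOS+/+ replicate 3, and was -0.58 and -0.24 without eNOS-/- replicates 1 and 3. The NO and cyclic GMP median rose to 0.72 and 0.71 (3 genes each) without eNOS-/- replicates 1 and 2 and to 0.74 and 0.86 (6 genes each) without eNOS+/+ replicates 2 and 3, and the EC median was -1.18 and -1.48 (3 genes each) without eNOS-/- replicates 1 and 2. Without the mural cells that carried EC UMIs, the medians were 0.33 for 5 pericyte markers (4 higher), 0.39 for 5 contractile genes (5 higher) and -0.80 for 2 cell cycle genes, beside 0.10 over 225 genes, with 0 EC and 0 NO and cyclic GMP genes left to test, and Kcnj8 was at 0.33. That last fit kept eNOS+/+ replicate 1 with 1 cell of 211 UMIs. The part of EC RNA in these values was not tested.

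Whether a genotype difference in mural cells differed from that in the ECs of the same replicates was tested as an interaction over 6557 genes, and 4 passed (0.061%; the quasi-likelihood test of edgeR, Benjamini-Hochberg adjusted). They were Depp1, Olfr1109, Actb and Jag1. Jag1, a Notch ligand, had 0 of 60288 mural UMIs in eNOS+/+ and 45 of 253876 in eNOS-/-, that is 0, 0 and 0 CPM against 224, 233 and 93.3 CPM by replicate, while ECs had 131 to 199.6 CPM in both genotypes. The eNOS-/- sum of 177 CPM was at least 3.56-fold higher than the 49.8 CPM that 3 UMIs over the eNOS+/+ group would make, and the 45 UMIs lay in 26 cells of all 3 eNOS-/- replicates. By single replicates, 3 UMIs came to 265, 149 and 104 CPM in eNOS+/+, so the level of eNOS-/- replicate 3 was below what any eNOS+/+ replicate could show and those of the other two were above it in eNOS+/+ replicates 2 and 3. Actb, cytoplasmic actin, was at 6889, 11813 and 9404 CPM in eNOS+/+ and 13551, 12438 and 10084 CPM in eNOS-/- mural cells, which overlapped, with a log2 difference of 0.88 between its genotype differences (adjusted p = 0.0114 by the quasi-likelihood test of edgeR, Benjamini-Hochberg adjusted).

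With RLE scaling, Jag1 and Actb were not called (adjusted p = 0.0858 and 0.600 by edgeR). Among fits that dropped a replicate, Jag1 passed only in that lacking eNOS-/- replicate 3 (adjusted p = 0.0301 by edgeR). Dropping eNOS+/+ replicate 1 lost the Actb call (adjusted p = 0.108 by edgeR), while dropping number 2 or 3 of that genotype kept it. In eNOS-/-, dropping number 1 or 2 lost it (adjusted p = 0.299 and 0.0851 by edgeR) and dropping number 3 kept it. The calls on Depp1 and Olfr1109 rested on few cells or on ECs. Depp1 had 17 mural UMIs, 14 of them in 1 cell of eNOS+/+ replicate 1, and Olfr1109, a gene of the olfactory receptor family, was at 6541, 15.2 and 18.4 CPM in the ECs of eNOS+/+ and 1071, 477 and 18.4 CPM in those of eNOS-/-. Without eNOS+/+ replicate 1, 0 of 7320 genes passed, without eNOS+/+ replicate 2 there were 7, without eNOS+/+ replicate 3 there were 18, and without eNOS-/- replicate 1 there was 1, while DESeq2 called 0 of 6557 genes. That 1 gene was Rgs5, with a difference, mural minus ECs, of -2.42 (adjusted p = 6.165e-12 by edgeR). It was also called without eNOS+/+ replicate 3 (-1.13, adjusted p = 0.0235 by edgeR) and with RLE scaling (-1.09, adjusted p = 0.0258 by edgeR), and was not called with all replicates (-0.76, adjusted p = 0.469 by edgeR). Without eNOS-/- replicate 3, whose ECs held 1761 CPM of Rgs5, the difference turned to 0.97 (adjusted p = 0.305 by edgeR). The median log2 difference over all genes in this test was 0.43 with TMM scaling and 0.12 with RLE scaling, and with RLE scaling 1 gene was called up and 4 down.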

How the data were processed

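Drop-seq libraries of CD31-enriched P14 OIR retinas were analysed (3 replicates per genotype). Alignment to GRCm38 was done by the authors with kb-python. They then discarded cells of low gene number or high mitochondrial content, annotated cells with Seurat 3 after integration (per the submitters' processing notes and the paper's methods) and removed contaminant clusters. The deposited table holds UMI counts without normalization, and a deposited table gives each cell's replicate and type. In 613 cells of 1 replicate (30 of them mural) 2 columns of that table name different replicates, and the column Replicate was used. The percent of mitochondrial UMIs per cell is the authors' own column. Other columns of the annotation were not used. Doublets were not called anew. Some members of the gene lists are counted but not reported by name here.

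UMI counts of the 214 mural cells and of the ECs were summed per replicate. Genotypes were compared with edgeR 4.0.16 (filterByExpr, TMM, quasi-likelihood test, Benjamini-Hochberg limit 0.05), and the interaction of genotype and cell type with the replicate as a block. Standard errors were derived from F statistics. Alternatives were DESeq2 1.42.0, RLE scaling, no filter, each replicate left out, replicate number as a block, replicates with at least 10 mural cells, no mitochondrial genes, cells of at least 500 UMIs, 1 cell per barcode family (barcodes that differ in the last base), mural cells with UMIs of 2 or more EC markers left out, Structural ECs as reference, and no rods or cones in the denominator. Cells with 250 to 1500 UMIs were added after seeing the data. The depth per replicate, given in the report, sets the precision of each level. Levels against ECs and other types have no test, since cells were annotated from the same UMIs. The labels give replicate numbers and no pairing of samples between genotypes. Deviations from the genotype means correlated at 0.03, -0.05 and 0.10 between same-numbered replicates over 1059 genes. Between replicates of different number they correlated at -0.11 to 0.09. Values this small, with 1 replicate of 3 mural cells, cannot show whether same-numbered replicates were handled together.

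In data simulated from the mural sums with 200 of 1059 genes changed by 2 on the log2 scale, the genotype test recovered 171, with 6 false calls, and called 0 with no change. This was a single draw, and recovery with fewer changed genes was not simulated. It therefore does not give the power behind the 0 genes called in the data. There, Sf3b1 at 2.00 and Nop56 at -2.03 had an adjusted p of 0.646 by edgeR. The interaction test recovered 14 of 200 among 6557 genes, with 0 false calls.

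The members and gene lists were chosen with earlier results of these data known. Named genes were those of the pericyte, contractile, fibroblast, PDGF, Notch, NO and cyclic GMP, basement membrane and EC lists, at most 4 of other lists, the 20 of largest ratio to ECs and the 5 of largest ratio to the highest other type among genes with at least 30 mural UMIs, the 5 most like Rgs5, called genes and the 5 of smallest p in each direction, and Nos3. Genes outside this rule (Mgp, Klf2, Top2a, Mki67, Slc7a1, Atp13a5 among them) were chosen after their values were seen. Gene positions are those of GENCODE on GRCm38, where 20437 of 20822 symbols matched 1 gene, and promoters are those of RefSeq on GRCm38.p6. Tools were Python 3.11.15 (pandas 2.3.3, numpy 2.4.6, matplotlib 3.10.9, scipy 1.17.1) and R 4.3.3.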

Additional observations from a re-analysis of the deposited data

Results flagged for a closer look

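In 4 genes the genotype difference in mural cells differed from that in the ECs of the same replicates by the interaction test (the quasi-likelihood test of edgeR, Benjamini-Hochberg adjusted). The difference of the log2 fold changes, mural minus ECs, was -5.84 for Depp1 (adjusted p = 0.00348), 3.35 for Olfr1109 (adjusted p = 0.00811), 0.88 for Actb (adjusted p = 0.0114) and 10.19 for Jag1 (adjusted p = 0.0484), all from edgeR. The value for Jag1 depends on the fit's handling of 0 UMIs in eNOS+/+ and is no bound. The Depp1 UMIs lay in 4 mural cells and the Olfr1109 UMIs in 18. Jag1 and Actb were not called with RLE scaling.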

How the results depend on the processing

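The 0 genes called between genotypes in mural cells stayed at 0 under all alternatives run other than no filter on low counts, where 3 of 12414 were called. The number of genes called in the interaction was 4, and 0 by DESeq2, 0 with replicates of at least 10 mural cells, 0 with mural cells that carried EC UMIs left out and 0 with cells of 250 to 1500 UMIs, and leaving out a replicate gave 0 to 18 (0 without eNOS+/+ replicate 1, 1 without eNOS-/- replicate 1, 7 without eNOS+/+ replicate 2 and 18 without eNOS+/+ replicate 3). The cause was not tested. The log2 difference of Olfr1109 turned to -1.32 without eNOS+/+ replicate 1, the replicate with fewer than 10 mural cells, and to -1.72 with cells of 250 to 1500 UMIs, and lay at up to 4.26 with another replicate left out. Leaving out a replicate moved the genotype difference in the mural share from -1.07 to 5.17 percentage points and that in mural cells per 100 ECs from -0.862 to 8, and both turned without eNOS-/- replicate 3. With the replicate number as a block, 0 genes were called, 44 at an unadjusted p under 0.05, and the share differences of 2.97 and 4.91 had an exact p of 0.75, where 0.25 is the smallest possible. The block cannot be read as a pairing, since the labels do not say that same-numbered replicates belong together. The number of 28 pericyte markers above ECs was 23 and lay between 17 and 25 in all alternatives. The mural cells of eNOS+/+ held 60288 UMIs in all and those of eNOS-/- 253876, and a gene below 3 UMIs in a replicate could not be told from 0.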
